A study of Mus musculus with 6 samples.

Results

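The small heat shock proteins Hspb1, Hspb2, Hspb6, Hspb7, Hspb8 and Cryab and the co-chaperone Bag3 were followed in mouse mesenchymal stem cells under terahertz irradiation. The members were chosen by gene symbol, as the probe sets to which the platform annotation gives exactly 1 symbol. All 7 genes were found, on 14 of the 45037 probe sets tested, and each of the 18193 genes, these 7 included, was represented by its brightest probe set. Mesenchymal stem cells, which can form fat, bone and cartilage, came from a commercial supplier. In each of 3 experiments 1 culture was exposed over 2 h to the continuous beam of a terahertz gas laser (2.52 THz, 118.8 µm), and its control stood beside it, unexposed, with both at 26 to 27 °C. Irradiated and control cultures alike had 5% serum and had received dexamethasone (1 µM), rosiglitazone (1 µM), insulin (5 µg/ml) and isobutylmethylxanthine (100 µM) again 48 h earlier, a mixture in common use to drive such cells towards fat cells, so that no group without it was compared. RNA was taken when the exposure ended, and each culture was read on 1 Affymetrix array, which gave 6 arrays, 3 per group.

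Small heat shock proteins are compact chaperones that share an alpha-crystallin domain, assemble into oligomers and hold unfolding proteins without using ATP. Bag3 joins them to Hsp70: its BAG domain binds Hsp70, and other parts of it bind Hspb8 and related small heat shock proteins, so that damaged filaments such as filamin can be passed to autophagy. Several of these genes are known targets of the heat shock factor Hsf1, which binds repeats of the block GAA and its reverse complement TTC, and several are abundant in muscle.

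RefSeq promoter windows of 300 bases, from 250 before to 50 after an annotated start, were held for 5 of the 7 genes, with 2 windows for Hspb6 and 1 for each of the others (build GRCm38.p6). They were searched for the paired blocks GAANNTTC and TTCNNGAA, each of which reads the same on both strands. The stretches with a match are shown because they set the Hsf1-type letters beside genes whose response was measured. Capitals mark the matches, and each stretch is given 5′ to 3′ on the gene's strand.
Hspb1, chr5:135887782-135887849, plus strand: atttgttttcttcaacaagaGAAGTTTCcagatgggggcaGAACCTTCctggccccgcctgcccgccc
Hspb6, second start, chr7:30553161-30553208, plus strand: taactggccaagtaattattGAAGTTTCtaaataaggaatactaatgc
Hspb8, chr5:116422845-116422872, minus strand: gaagccaggaGAAGTTTCtaggctcgcg
Bag3, chr7:128523615-128523632, plus strand: gatgggaccaGAAGTTTC

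Hspb1, Hspb6, Hspb8 and Bag3 each held GAANNTTC in the same form, GAAGTTTC. Counted from the first transcribed base as 1, it lay at -117 to -110 in Hspb1, at -120 to -113 from the second start of Hspb6, at 3 to 10 in Hspb8 and at 43 to 50 in Bag3, where the window ends. Hspb1 had another match, GAACCTTC, at -97 to -90. The window of Hspb7 and the first of Hspb6 held neither pair, and TTCNNGAA was in no window of these genes. Of 32851 windows of this length 7.86% held GAANNTTC and 8.52% held TTCNNGAA. The form GAAGTTTC was on the gene's strand in 0.633% of them and on either strand in 1.21%. The form GAAGTTTC was singled out after these windows had been read. Among 7 heat-inducible genes and heat shock factors with a window, 5 held GAANNTTC (Hspa1a, Hspa1b, Hspd1, Hspe1 and Hsph1). On the gene's strand 0 held it as GAAGTTTC, and the other strand was not searched for this form in these genes. A match of letters is a description of the sequence and shows no binding.

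No member passed the test of irradiated against control. The paired limma fit called 0 of the 7 at a Benjamini-Hochberg adjusted p under 0.05, where it called 0% of the 18193 genes. At an unadjusted p under 0.05 it gave 1 of the 7, Hspb7, beside 603 of all genes (3.31%), and over probe sets it gave 1 of the 14, beside 3.77% of all. The difference had 1 sign in all 3 experiments for 2 of the 7, Bag3 and Hspb7, and for 21% of all genes. Of the members 4 had a mean difference above 0 and 3 below it, where 45.2% of all genes were above and 53.3% below. Their median difference was 0.0067 log2 units, against -0.01 for all genes, and the differences ran from -0.19 for Bag3 to 0.32 for Hspb7. By experiment the median over the 7 was -0.10, 0.11 and 0.20 in experiments 1 to 3. In bulk cultures fewer cells of a type and less RNA per cell cannot be told apart.

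As a sign of RNA quality, the 3' control probe set of actin was above the 5' one by 0.50 to 0.57 log2 units on 5 arrays, and the control of experiment 3 stood apart at 0.68. For Gapdh the same difference was 0.11 on that array and -0.10 to -0.08 on the others. Differences in experiment 3 rest on that control, and its part in the results was not tested beyond leaving it out. Medians of the arrays were 5.01 to 5.05, and the median gene had a level of 6.46. Since a probe set's level also depends on its probes, levels do not rank genes by their amount of RNA. Genes called bright or dim below lay above or under the median gene level. All values below are log2 RMA values, and their precision is limited by the number of arrays.

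**Figure D1:**
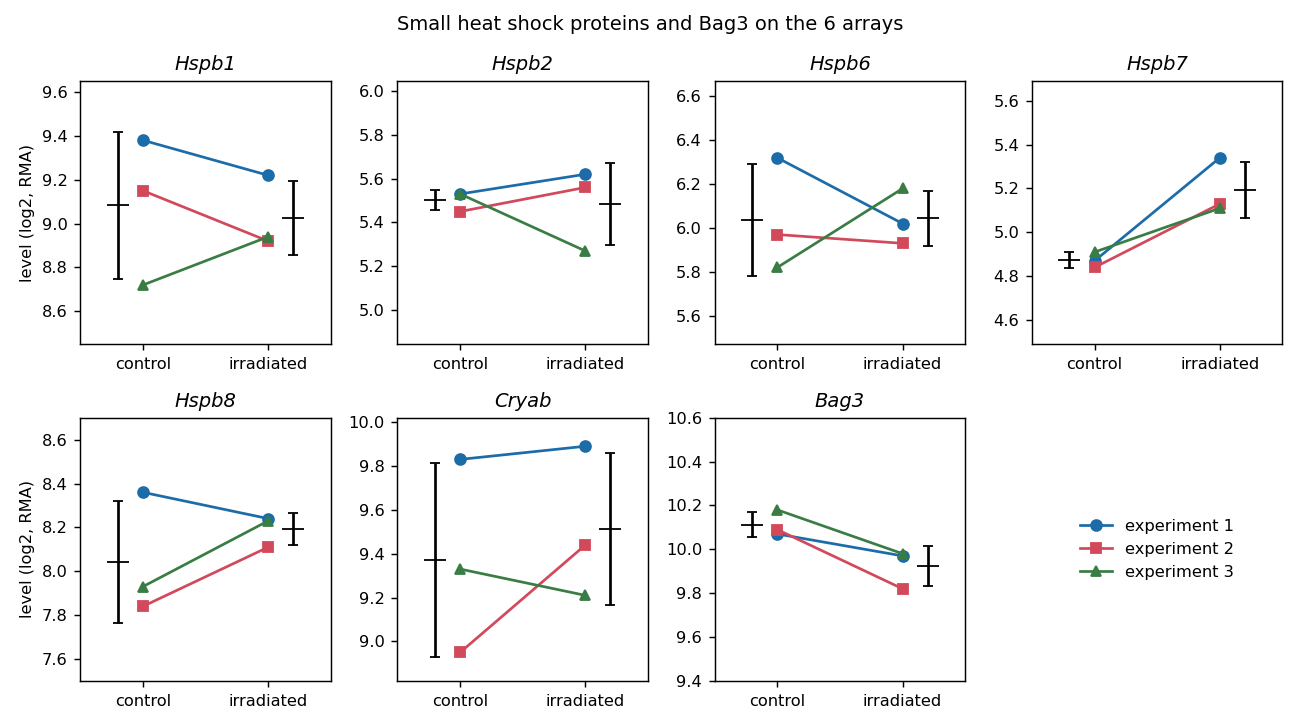
Level of each gene (log2, RMA) in control and irradiated cultures. Coloured lines join the 2 cultures of an experiment, and black bars give the mean and SD of each group (n = 3). All panels span the same range. Only the Hspb7 and Bag3 panels show groups that do not overlap, with Hspb7 higher and Bag3 lower in the 3 irradiated cultures.

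Bag3, the hub that links small heat shock proteins to Hsp70, was lower in the irradiated culture of every experiment, by less than the test could call. Its controls read 10.07, 10.09 and 10.18 in experiments 1 to 3, and the irradiated cultures 9.97, 9.82 and 9.98. The 3 irradiated values lay below the 3 controls, with the highest irradiated value 0.09 log2 units under the lowest control. All 3 experiments were lower for 12.8% of all genes, and the groups failed to overlap in this direction for 5.36%. The mean difference was -0.19 log2 units (SD 0.085, SE 0.080, n = 3 pairs), or 0.877-fold with a 95% interval of 0.767 to 1.00. limma gave it an unadjusted p of 0.0521 and a Benjamini-Hochberg adjusted p of 0.995. Bag3 was read by 1 probe set, 1422452_at, so no other probe set could be set beside it. The gene lies at chr7:128523583-128546981.

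Hspb7, a small heat shock protein best known from heart and skeletal muscle, had the widest mean difference of the 7, on a dim probe set. Its controls read 4.87, 4.84 and 4.91 and the irradiated cultures 5.34, 5.13 and 5.11 in experiments 1 to 3. The controls stood within 0.07 log2 units of each other, and every irradiated value was above them. All 3 experiments were higher for 8.23% of all genes, and groups failed to overlap in this direction for 2.9%. The mean difference was 0.32 log2 units (SD 0.14, SE 0.087, n = 3 pairs), or 1.25-fold (95% interval 1.08 to 1.44). limma gave an unadjusted p of 0.00880 and a Benjamini-Hochberg adjusted p of 0.995, and 51 of the 18193 genes had a smaller unadjusted p.

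The 3 probe sets of Hspb7 did not run together. Beside 1434927_at, the brightest at a mean level of 5.03, the probe set 1421290_at (level 4.50) differed by 0.06, 0.39 and 0.12 in the 3 experiments, a mean of 0.19 (SE 0.10), and its groups did not overlap either. The dimmest, 1421289_at (level 3.49), differed by -0.20, -0.01 and -0.20, a mean of -0.14 (SE 0.091). Over the 6 arrays the brightest correlated with 1421290_at at r = 0.686 and with 1421289_at at r = -0.264. All 3 lay below the median gene level, where RMA tends to understate changes. Whether they rose above background was not tested, as detection calls were not used. The mean over the 3 probe sets differed by 0.12 log2 units in place of 0.32. The gene lies at chr4:141420779-141425310.

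**Figure D2:**
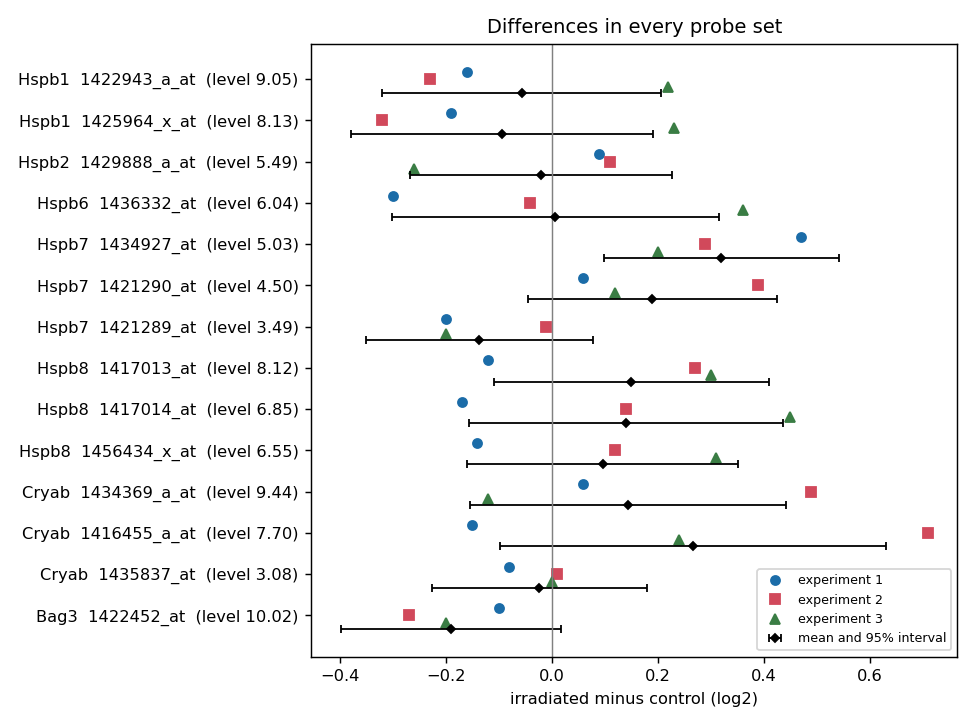
Irradiated minus control (log2) for all 14 probe sets of the 7 genes. Coloured symbols are the 3 experiments, and black diamonds with bars give the mean and the 95% interval of limma's fit over all probe sets. The interval of 1434927_at of Hspb7 (0.098 to 0.54) is the only one that leaves out 0, and the 3 probe sets of Hspb8 share the same sign in each experiment.

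Hspb8, the small heat shock protein that binds Bag3, differed in sign between experiments. Its controls read 8.36, 7.84 and 7.93 and the irradiated cultures 8.24, 8.11 and 8.23 in experiments 1 to 3. Among the 6 arrays the first control was the highest and the other controls the lowest, so the groups overlapped. The differences of -0.12, 0.27 and 0.30 gave a mean of 0.15 (SE 0.11, 95% interval -0.10 to 0.40, n = 3 pairs), and limma's Benjamini-Hochberg adjusted p was 0.995. The other probe sets repeated the signs, with -0.17, 0.14 and 0.45 for 1417014_at and -0.14, 0.12 and 0.31 for 1456434_x_at, whose suffix x marks probes that may also bind other transcripts. Over the 6 arrays the 3 probe sets correlated at r = 0.884 to 0.985. The gene lies at chr5:116408491-116422864.

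Cryab, alpha-B crystallin, a chaperone of lens and muscle, varied more between cultures than between the groups. The controls read 9.83, 8.95 and 9.33 and the irradiated cultures 9.89, 9.44 and 9.21. Both cultures of experiment 1 stood above the other 4, and the lowest value was the control of experiment 2. The differences of 0.06, 0.49 and -0.12 gave a mean of 0.14 (SE 0.12, 95% interval -0.16 to 0.44, n = 3 pairs; limma adjusted p 0.995), and without experiment 2 the mean was -0.03. The second probe set, 1416455_a_at (level 7.70), differed by -0.15, 0.71 and 0.24, so that experiment 2 was the highest in both and the other signs were opposite. The third, 1435837_at (level 3.085), stayed between -0.08 and 0.01. The 2 brighter ones correlated at r = 0.937 over the 6 arrays, and the third correlated with them at -0.774 and -0.674.

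Hspb2, a muscle small heat shock protein, lies beside Cryab in the genome and is read by 1 dim probe set. RefSeq places Hspb2 at chr9:50751072-50752354, inside the annotated span of Cryab at chr9:50745951-50756636. Its controls read 5.53, 5.45 and 5.53 and the irradiated cultures 5.62, 5.56 and 5.27. The irradiated culture of experiment 3 was the lowest array and the other irradiated cultures the highest. The differences of 0.09, 0.11 and -0.26 gave a mean of -0.02 (SE 0.10, n = 3 pairs), which became 0.10 without experiment 3. Levels of Hspb2 and Cryab correlated at r = 0.629 over the 6 arrays, which share 3 experiments. Since the annotated spans overlap, the signals of both genes may not be fully separate.

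Hspb1, or Hsp25 in mice, which caps actin filaments and is among the best known heat-inducible small heat shock proteins, was lower in 2 experiments and higher in the third. Its controls read 9.38, 9.15 and 8.72 and the irradiated cultures 9.22, 8.92 and 8.94. The highest and the lowest of the 6 arrays were both controls. The differences of -0.16, -0.23 and 0.22 gave a mean of -0.057 (SE 0.11, 95% interval -0.31 to 0.20, n = 3 pairs), and without experiment 2 the mean was 0.03. The other probe set, 1425964_x_at, differed by -0.19, -0.32 and 0.23, and the pair correlated at r = 0.992 over the 6 arrays. Without the control of experiment 3, in a fit with no block, the mean of Hspb1 was -0.24. The gene lies at chr5:135887919-135889563.

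Hspb6, or Hsp20, a small heat shock protein of muscle that is phosphorylated under cyclic AMP, differed in opposite directions in experiments 1 and 3. Its controls read 6.32, 5.97 and 5.82 and the irradiated cultures 6.02, 5.93 and 6.18. Here too the highest and the lowest arrays were controls. The differences of -0.30, -0.04 and 0.36 averaged 0.0067 (SE 0.13, 95% interval -0.30 to 0.32, n = 3 pairs). Without experiment 3 the mean was -0.17, and without its control alone, in a fit with no block, it was -0.10. The gene lies at chr7:30552535-30555443 and was read by 1 probe set below the median gene level.

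The members differed in how far the 3 control cultures differed from each other. Controls of Cryab spanned 0.88 log2 units, those of Hspb1 0.66, of Hspb8 0.52 and of Hspb6 0.50, and the SDs of these 4 lay at the 92.5 to 99.2 percentile of all genes. Controls of Bag3 spanned 0.11, of Hspb2 0.08 and of Hspb7 0.07, at the 9.70 to 23.1 percentile. The control of experiment 1 was the highest control for Hspb1, Hspb6, Hspb8 and Cryab. limma's F test of the experiment term, chosen after these levels were seen, called 0 of the 7 and 0 of all genes after Benjamini-Hochberg adjustment. Before adjustment limma's p was 0.00717 for Cryab and 0.0284 for Hspb1, each with an adjusted p of 0.907, and 5.46% of all genes were under 0.05. Groups did not overlap for Bag3 and Hspb7, 2 of 7, where 8.26% of all genes had such groups in either direction.

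Some muscle markers had levels like those of Hspb8 over the arrays and others did not. Over the 8 muscle markers the correlation with Hspb8 ran from -0.520 to 0.943 with a median of 0.823, and 6 were above 0, over 6 arrays that share 3 experiments. Calponin (Cnn1) stood at 0.943, smooth muscle actin (Acta2) at 0.927, Tagln at 0.919, the dim Myog at 0.907 and the dim Myh11 at 0.739, against 0.228 for Actc1, -0.081 for Myod1 and -0.520 for Ckm. The crosslinker Actn1, from the list of filament proteins, correlated with Hspb8 at 0.940, with Cryab at 0.822 and with Bag3 at -0.522. For the other members the median over the 8 muscle markers was 0.667 for Hspb6, 0.577 for Cryab, 0.218 for Hspb7 and 0.214 for Hspb1. It was 0.021 for Hspb2 and -0.481 for Bag3. Tagln differed by -0.30, 0.69 and 0.64 in experiments 1 to 3 and Cnn1 by -0.58, 0.79 and 0.44, with the signs of Hspb8, whereas Ckm (0, 0.05 and -0.03), Actc1 (0.10, 0.32 and -0.07) and Myod1 (-0.17, -0.05 and 0.52) had other signs. Of the 8 markers 7 had a mean difference above 0, with a median of 0.11, and limma called 0 of them, none under an unadjusted p of 0.05. Their mean level ran from 6.11 to 6.50 over controls and from 6.31 to 6.43 over irradiated cultures, and the striated muscle genes Myod1 and Myog read 3.32 to 4.01, under the median gene level. High correlations with Hspb8 were not confined to muscle markers. The 4 endothelial markers, all below the median gene level, stood at 0.896 (Cdh5), 0.369 (Tek), -0.291 (Kdr) and -0.600 (Pecam1). The stromal markers ran from -0.773 to 0.768. The part of contractile or other cells in the values of Hspb8 was not tested.

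Fat cell markers were bright, with all 6 measured above the median gene level and Fabp4 at 14.29 to 14.45. All 6 had a mean difference below 0, with a median of -0.10, and limma called 0 of them, none under an unadjusted p of 0.05. Their median was 0.09, -0.41 and -0.01 in experiments 1 to 3, and in experiment 2 Lipe differed by -1.17, Cidec by -0.74 and Pparg by -0.55. Over the 6 arrays Hspb8 correlated with Pparg at r = -0.692, Hspb1 with Cidec at 0.906 and Bag3 with Pparg at 0.681. For each member this was the fat cell marker furthest from 0. Over the 6 markers the median correlation was -0.266 for Hspb8, 0.470 for Hspb1 and 0.362 for Bag3. Of the 5 measured stromal markers 3 had a mean above 0 and 2 below, with a median of 0.10, and limma called 0. Nt5e differed by 0.11, 0.27 and 0.26 (limma unadjusted p 0.0352) and Itgb1 by 0.03, 0.30 and 0.21. Both were higher in all 3 experiments, as were 8.23% of all genes, and the groups of both overlapped. Eng (-0.027) and Cd44 (-0.0067) had mean differences below 0. Thy1, a defining stromal marker, read 3.40 to 4.17 and differed by 0.50, -0.19 and 0. Bag3 correlated with the stromal markers at -0.875 (Itgb1) to 0.848 (Eng), with a median of -0.317. Macrophage markers were bright too, with Lyz2 at 14.10 to 14.28. Their median difference was 0.005, and Cd14 differed by -0.14, -0.02 and 0.79. Over the 6 arrays each macrophage marker correlated below 0 with Hspb1 (-0.823 to -0.321), Hspb2 (-0.859 to -0.499) and Cryab (-0.830 to -0.476). The same held for Hspb7 (-0.377 to -0.073) and Hspb8 (-0.477 to -0.034), while Hspb6 and Bag3 had both signs. The 6 arrays share 3 experiments, and these correlations do not separate experiments from cultures. In experiments 1 to 3, for example, Adgre1 averaged 9.945, 10.305 and 10.41, and Cryab 9.86, 9.195 and 9.27. The part of these cell types in the values of the chaperones was not tested.

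**Figure D3:**
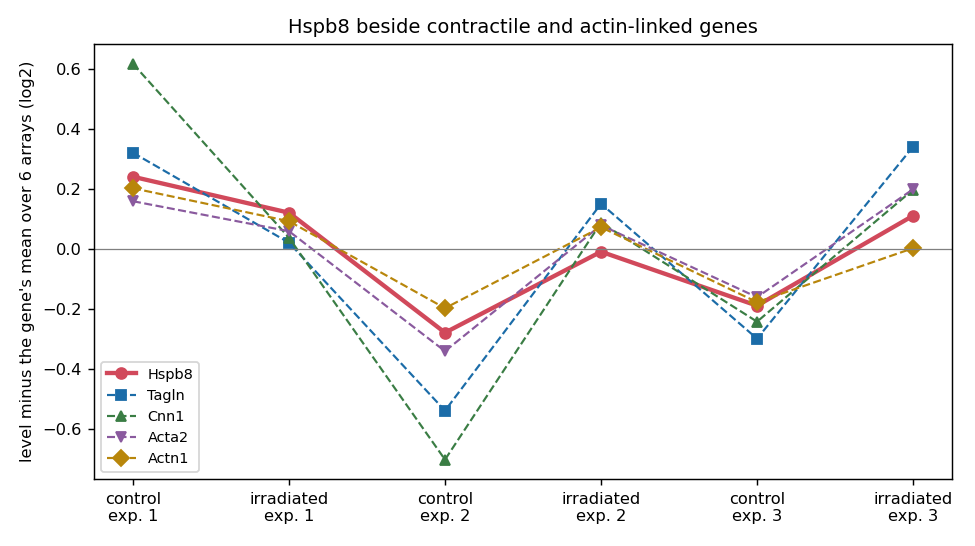
Level of Hspb8 and of 4 contractile or actin-linked genes on each array, minus the mean of that gene over the 6 arrays (log2), with the 4 chosen after their values were seen. The control of experiment 1 is the highest array for Hspb8 and for Cnn1 and Actn1, and the control of experiment 2 is the lowest for all 5 genes.

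Other small heat shock proteins were dim and gave no call. All 4 that were measured lay below the median gene level, so their differences are those of dim probe sets, and limma called 0 of them, with an unadjusted p under 0.05 for Cryaa and Hspb9. Cryaa, alpha-A crystallin of the lens, read 5.50, 5.78 and 5.48 in controls and 5.40, 5.32 and 5.23 in irradiated cultures, a mean difference of -0.27 (SE 0.095, limma adjusted p 0.995). Hspb9, a testis small heat shock protein, read 3.49, 3.76 and 3.56 in controls and 3.81, 3.90 and 3.89 in irradiated cultures, a mean of 0.26 (SE 0.083, limma adjusted p 0.995). Groups did not overlap for these 2 of the 4, where 8.26% of all genes had such groups. The sperm tail gene Odf1 stood at 0.08 and the muscle gene Hspb3 at -0.057.

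Relatives of Bag3 and genes of chaperone-assisted autophagy had mean differences smaller in size than that of Bag3. Of 15 genes of the BAG family and of chaperone-assisted autophagy limma called 0, and 0 had an unadjusted p under 0.05. Their mean differences ran from -0.09 to 0.13, 4 above 0, 9 below and 2 at 0, with a median of -0.03 against -0.01 for all genes. Bag2, which holds back the ubiquitin ligase Stub1, was furthest from 0 at 0.13 (SE 0.078), with controls of 7.73 to 7.85 and irradiated cultures of 7.85 to 7.95. Lamp2, a lysosomal membrane protein, stood at 0.097, and Bag4 and the deacetylase Hdac6 at -0.09 each. Hspa8, the constitutive Hsp70 to which Bag3 binds, stood at 0.023 and the autophagy receptor Sqstm1 at -0.083.

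Filamins and other filament or actin-linked proteins gave no call either. Of 8 measured genes limma called 0, and no unadjusted p was under 0.05. Among them 7 had a mean above 0 and 1 below, and the median was 0.065. Actn1 stood at 0.11 (SE 0.098), the focal adhesion protein Zyx at 0.077, talin (Tln1) at 0.073 and desmin (Des) at 0.07. Flnc, the muscle filamin handled by Bag3 and Hspb8, differed by 0.06 (SE 0.11). Over the 6 arrays its levels correlated with those of Hspb8 at r = 0.816, of Hspb6 at 0.731 and of Bag3 at -0.531. Correlations with the members were computed for only Flnc and Actn1 of the 8 genes.

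Classical heat-inducible chaperones and Hsf2 stood between -0.12 and 0.13. Of the 8 measured genes limma called 0, and no unadjusted p was under 0.05, while 6 lay above 0 and 2 below, with a median of 0.028. Hspa1a stood at 0.13 (SE 0.11), Hspe1, the mitochondrial co-chaperonin, at -0.12 (SE 0.087), Hspa1b at 0.073 and Hspd1 at -0.067. Hspa1a and Hspa1b are near-identical copies, so that a probe set of one may read the other. Hsf1 was not analysed here.

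**Figure D4:**
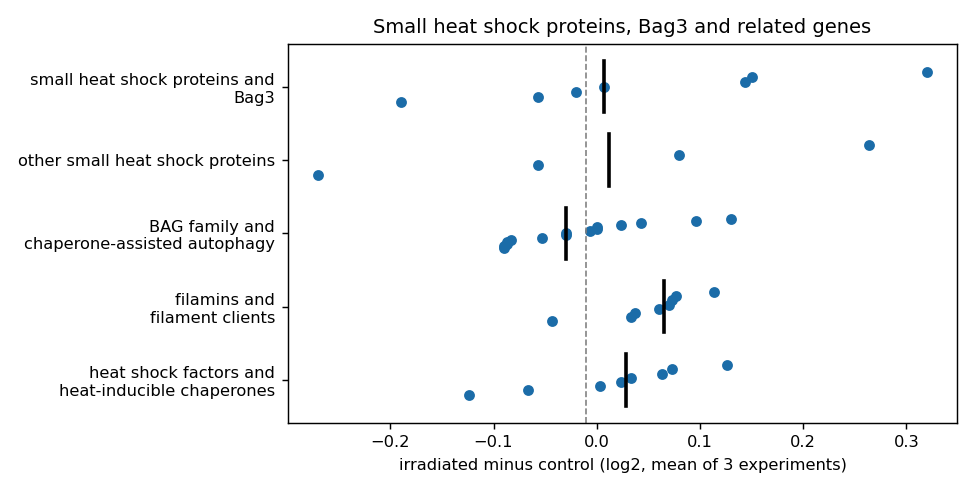
Irradiated minus control (log2, mean of 3 experiments) for each measured gene of 5 lists. Each dot is a gene, black bars are list medians, and the dashed line is the median of all genes at -0.01. The small heat shock proteins with Bag3 spread from -0.19 to 0.32, and the 15 genes of the BAG family and chaperone-assisted autophagy from -0.09 to 0.13.

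Of genes no dimmer than the median gene, those with levels most like Bag3 over the 6 arrays were Atf6b (r = 0.993), Nploc4 (0.991) and Polr1e (0.988). Their mean differences were -0.16, -0.16 and -0.16, a direction that choosing them by likeness to Bag3 favours. Those most like Hspb7 were Cenpc1 (r = 0.990), Pts (0.981) and Rbm7 (0.971), with mean differences of 0.24, 0.15 and 0.037, to which the same applies. Hspb8 was nearest to Slc15a4 (r = 0.990), Cenpt (0.989) and Rnf139 (0.988), and Cryab to Vnn1 (0.991), Pawr (0.991) and Mcc (0.989). Hspb1 was nearest to Zbtb8a (r = 0.982), Nampt (0.981) and S100a1 (0.980), Hspb2 to Pqlc3 (0.984), Rps20 (0.979) and Abhd4 (0.976), and Hspb6 to Ltbp2 (0.992), Golgb1 (0.986) and Eipr1 (0.980). Each was the closest of 9098 or 9099 candidates on 6 arrays, and these values describe the arrays only. Among the members themselves the highest correlations were 0.791 for Hspb6 with Hspb8 and 0.775 for Hspb8 with Cryab, and the lowest was -0.657 for Hspb7 with Bag3.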

How the data were processed

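The authors deposited log2 values, with 1 value for each probe set and array; RMA, affy and limma are named in the submitters' processing notes, with versions not given in the sources used here. RMA corrects background, quantile-normalizes the arrays and summarises probes, which hides any change shared by all transcripts. The log base was taken from the range of the values, which are rounded to 2 decimals. Per the labels' protocols, 200 ng of RNA was amplified from an oligo-dT primer.

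The table held 45101 probe sets, less 64 controls; 34945 had 1 symbol, 932 several and 9160 none. Symbols came from the platform annotation, and 18032 of 18193 genes matched RefSeq's GRCm38.p6 table by Entrez identifier, with 0 symbols changed. The main test was limma 3.58.1 (R 4.3.3), irradiated minus control with the experiment as a block, over all genes, with no filter on dim ones, Benjamini-Hochberg adjustment and a threshold of 0.05. A second fit ran over all 45037 probe sets. Intervals are limma's moderated ones at 95%. The pairing comes from the design text. Arrays of the same experiment deviated from their group means with correlations of 0.087, -0.065 and -0.029 in experiments 1 to 3. No pair of arrays held identical values. The script was tested on simulated data.

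Members, related lists, markers and the rule for named genes (the members, up to 4 genes per list with the largest absolute difference, the 3 genes most like each member) were chosen with earlier results of these data known. Some further genes of the lists, such as Hspa8, Sqstm1 and Flnc, were named after their values were seen. Promoter sequences are RefSeq's. Scanner files and detection calls were not used here. Labels call the experiments biological replicates.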

Additional observations from a re-analysis of the deposited data

How the results depend on the processing

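Alternatives were a fit with no replicate block, a random block, leaving out each experiment, a filter at the median level, eBayes with trend and robust, centring each array on its median, the mean over a gene's probe sets, an ordinary paired test, and, added after the data were seen, leaving out the control of experiment 3 without a block. Under all 11 settings limma or the ordinary test called 0 of the 7 members, with adjusted p values from 0.926 to 1. The ordinary paired test without moderation called 8 genes and 12 probe sets where limma called 0. That test has 2 residual degrees of freedom, and the values are rounded to 2 decimals. Near-equal differences can therefore give a spread near 0 and a very small p. Whether these calls rest on that was not tested. With no replicate block limma called 0 genes, with 649 at an unadjusted p under 0.05, and the block changed no call. With 1 culture of each group per experiment, leaving out the block cannot change a mean difference. Those of Bag3 (-0.19) and Hspb7 (0.32) are therefore the same in both fits.

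Of 74 values for single members 69 kept their sign and 5 changed it, 4 of these when an experiment was left out. Many of the 74 could not change. The fits with no block, a random block or trend and robust give the same mean difference by design. So do the median filter and the ordinary test. Leaving out 1 experiment gave -0.20 to 0.03 for Hspb1, -0.085 to 0.10 for Hspb2, -0.17 to 0.16 for Hspb6 and -0.03 to 0.28 for Cryab; Hspb6 was at -0.10 without the control of experiment 3. Bag3 (-0.24 to -0.15), Hspb7 (0.25 to 0.38) and Hspb8 (0.075 to 0.29) kept their sign. The median over the 7 ran from 0.03 to 0.16. Hspb2, Hspb6 and Hspb7 lie below the median level and gave no value under that filter. Signal over background was not analysed here.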
